A study of Mus musculus with 10 samples.

Results

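The genes described here are 10 members of the Notch pathway, chosen by symbol from a table of 55573 genes: the receptors Notch1, Notch2 and Notch3, the ligands Dll1, Dll3 and Jag1, and the transcriptional targets Hes1, Hes5, Hey1 and Heyl. RNA was measured by polyA-selected sequencing in fluorescent cells sorted from the cortex of mouse pups on postnatal day 3. The 5 Cdk7_KO libraries came from pups of the genotype NexCre/+;Cdk7lox/lox, R26EYFP/+, and the 5 Ctrl libraries from pups of the genotype NexCre/+;Cdk7+/+, R26EYFP/+, with 1 preparation per mouse. NexCre, which both genotypes carry, is a Cre recombinase driven by the Neurod6 (Nex) gene, which cortical glutamatergic neurons switch on soon after they are born. It removes the floxed Cdk7 alleles and switches on EYFP, the yellow fluorescent protein used for the sort, in the same cells. It is known as a neuronal driver that largely spares radial glia, astrocytes and vessel cells. The comparison asks how RNA levels differ in the sorted cells when Cdk7, a kinase that activates cell-cycle kinases and, within TFIIH, phosphorylates RNA polymerase II, is deleted.

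Notch receptors are activated by ligands on the surface of a neighbouring cell. Cleavage by ADAM10 and gamma-secretase then frees the intracellular domain, which joins the DNA-binding protein RBPJ and switches on repressor genes of the Hes and Hey families. In the developing cortex, newborn neurons and intermediate progenitors present Delta-like ligands, while radial glia carry Notch1 and keep Hes1 and Hes5 on, which holds them undifferentiated. Notch3 and Heyl are known for their expression in the mural cells of vessels, and Hey1 and Dll4 in endothelium.

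Total counts per library lay between 23497621 and 31233466. Levels below are CPM (a gene's counts divided by the library total and scaled to a common total), and values per library are listed for replicates 1 to 5 of Cdk7_KO and replicates 1, 3, 4, 5 and 6 of Ctrl. Cdk7 was at 5.16 ± 1.30 CPM in Cdk7_KO and 15.7 ± 4.00 CPM in Ctrl (SD, n = 5 each; two-sided exact permutation p = 0.0079, the smallest that 5 against 5 libraries can give), with no overlap. Its edgeR log2 fold change was -1.54 (SE 0.22, adjusted p = 0.161). By Xist and the Y-linked gene Ddx3y, 2 Cdk7_KO and 3 Ctrl libraries were female, and 3 Cdk7_KO and 2 Ctrl libraries were male. Replicates 4 to 6 were all female and replicates 1 to 3 all male, so that sex cannot be told apart from whatever else separates these preparations. Markers of projection neurons, the labelled cell type, summed to 2102 to 2811 CPM in Cdk7_KO and 1823 to 2719 CPM in Ctrl. Of these 10 markers 9 had a positive log2 fold change, with a median of 0.27. At an unadjusted edgeR p under 0.05, 3 of them were higher, against 4.9% of all genes. The sorted material also held RNA of genes that mark other cells, in different amounts per genotype, as given further on.

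The 3 receptors, Jag1 and the 4 targets all had lower means in Cdk7_KO, whereas the means of the Delta-like ligands Dll1 and Dll3 lay closer together. No member passed edgeR's quasi-likelihood test after Benjamini-Hochberg adjustment over 15578 genes, a fit that called 0 genes at all (0% of genes). At an unadjusted p under 0.05, 7 of the 10 members were lower in Cdk7_KO and 0 were higher, against 10.5% of all genes lower and 4.9% higher by the same rule. The members' median log2 fold change, Cdk7_KO over Ctrl, was -1.04, against 0.01 over all genes, and 9 of 10 were negative, against 47.5% of all genes. DESeq2 called 6 members lower (Notch1, Notch2, Notch3, Jag1, Hes5 and Heyl) and 0 higher at an adjusted p under 0.05, against 3.3% and 0.258% of the genes it tested. With sex as a factor edgeR also called 6 members lower (Notch1, Notch2, Notch3, Jag1, Hes1 and Heyl) and 0 higher, against 4.4% and 0.295% of all genes. Dll1, Dll3 and Hey1 were called in neither. Notch1 and Jag1 had no overlap between the genotypes, with Cdk7_KO lower, which held for 2.41% of all genes, while 0 members had no overlap with Cdk7_KO higher, against 0.61%. In these bulk samples fewer cells of a type and less RNA per cell cannot be told apart.

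**Figure D1:**
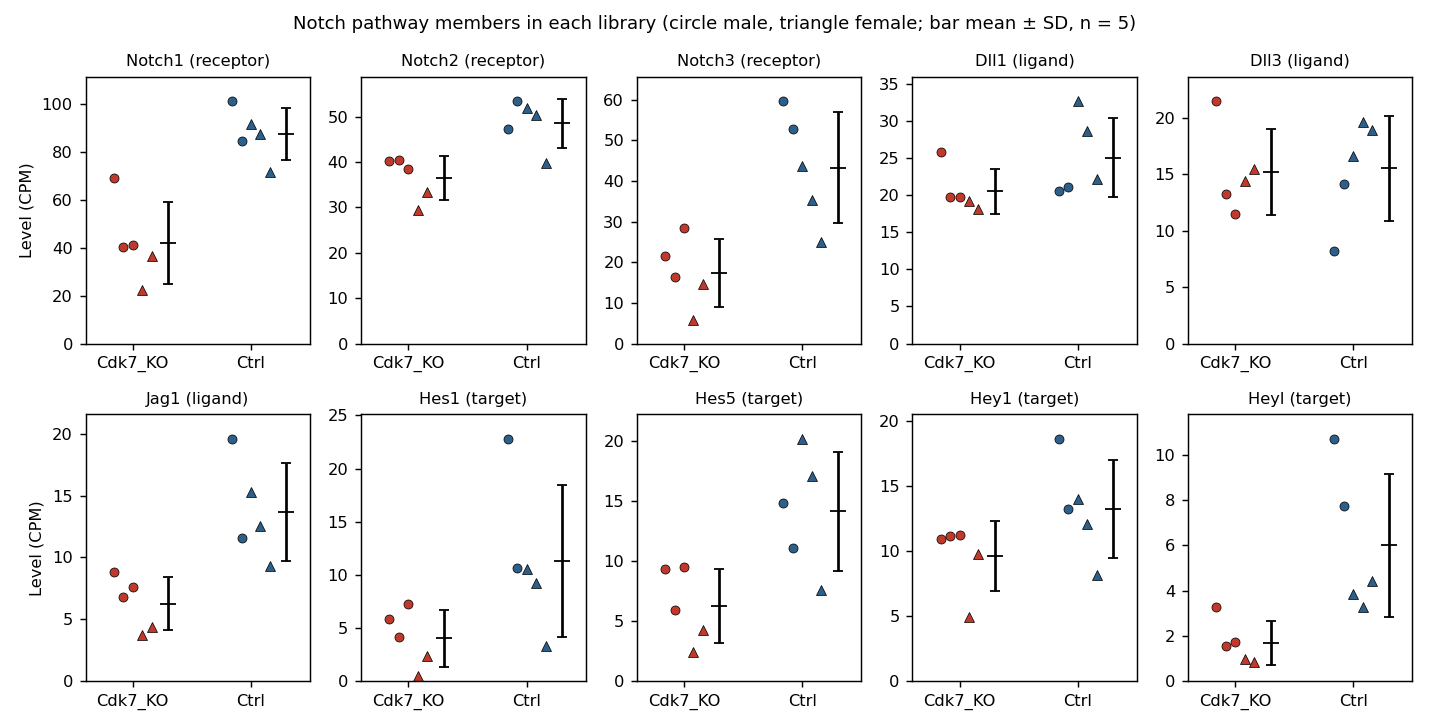
Level of each member in CPM (vertical axes, linear, from 0) in the 5 Cdk7_KO and 5 Ctrl libraries, with circles for male and triangles for female libraries and bars for the mean ± SD. The Notch1 and Jag1 libraries of the 2 genotypes do not overlap, while those of Dll3 cover much the same range.

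Notch1, the receptor that keeps radial glia in the progenitor state (ENSMUSG00000026923, minus strand, GRCm38 chr2:26457903-26516663), was at 69.2, 40.5, 41.1, 22.2 and 36.7 CPM in Cdk7_KO, against 101, 84.5, 91.9, 87.8 and 71.7 CPM in Ctrl. Every Cdk7_KO library lay below the lowest Ctrl library, replicate 6, and Cdk7_KO replicate 1 came closest to it. The means were 41.9 ± 17.1 CPM in Cdk7_KO and 87.4 ± 10.8 CPM in Ctrl (SD, n = 5 each). In edgeR this was a log2 fold change of -1.01 (SE 0.22; 95% interval -1.48 to -0.54, edgeR adjusted p = 0.161). The adjusted p was 0.00137 in DESeq2 and 0.0118 in edgeR with sex as a factor, and without Cdk7_KO replicate 1 edgeR called the gene (log2 fold change -1.27, adjusted p = 0.0391).

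Notch3, the receptor best known from pericytes and vascular smooth muscle (ENSMUSG00000038146, minus strand, chr17:32120820-32166852), was at 21.5, 16.4, 28.4, 5.89 and 14.7 CPM in Cdk7_KO, against 59.6, 52.9, 43.6, 35.3 and 25.1 CPM in Ctrl. The genotypes overlapped through Cdk7_KO replicate 3 and Ctrl replicate 6, and 4 of the 5 Cdk7_KO libraries lay below all Ctrl libraries. Its mean was 17.4 ± 8.36 CPM in Cdk7_KO and 43.3 ± 13.7 CPM in Ctrl (SD, n = 5 each), a log2 fold change of -1.27 (SE 0.33, edgeR adjusted p = 0.161; DESeq2 adjusted 0.0406; with sex as a factor 0.0100).

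Notch2, a receptor shared by progenitors, glia and many other cells (ENSMUSG00000027878, plus strand, chr3:98013527-98150361), differed least of the 3. It was at 40.2, 40.5, 38.4, 29.4 and 33.4 CPM in Cdk7_KO, against 47.2, 53.3, 51.8, 50.4 and 39.8 CPM in Ctrl. The genotypes overlapped only through Ctrl replicate 6, which lay below 2 of the Cdk7_KO libraries. Its log2 fold change was -0.36 (SE 0.10, 95% interval -0.57 to -0.15, edgeR adjusted p = 0.163; DESeq2 adjusted 0.0359; with sex as a factor 0.0221).

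Jag1, the Jagged ligand, which is made by progenitors and vessel cells among others (ENSMUSG00000027276, minus strand, chr2:137081456-137116644), was at 8.80, 6.80, 7.58, 3.74 and 4.40 CPM in Cdk7_KO, against 19.6, 11.6, 15.3, 12.6 and 9.33 CPM in Ctrl. The highest Cdk7_KO library stood just under the lowest Ctrl library, so that the genotypes did not overlap. The means of 6.26 ± 2.14 CPM in Cdk7_KO and 13.7 ± 3.95 CPM in Ctrl (SD, n = 5 each) gave a log2 fold change of -1.08 (SE 0.25, 95% interval -1.63 to -0.53, edgeR adjusted p = 0.161). Its adjusted p was 0.00413 in DESeq2 and 0.0114 in edgeR with sex as a factor.

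Dll1, the Delta-like ligand by which newborn neurons and intermediate progenitors activate Notch in their neighbours (ENSMUSG00000014773, minus strand, chr17:15367354-15376872), was at 25.8, 19.7, 19.7, 19.1 and 18.1 CPM in Cdk7_KO, against 20.5, 21.1, 32.6, 28.6 and 22.2 CPM in Ctrl. Cdk7_KO replicate 1 stood above 3 Ctrl libraries, and the other 4 Cdk7_KO libraries lay close together below the lowest Ctrl library. Its log2 fold change was -0.23 (SE 0.14, 95% interval -0.54 to 0.08, edgeR adjusted p = 0.471). The RNA gene A930024N18Rik overlaps exons of Dll1 on the opposite strand and was at a mean of 2.63 CPM. Since the strand setting of the counting is not given in the sources used here, reads of the pair may have been counted together.

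Dll3, a divergent Delta-like protein that acts inside the cell that makes it and dampens rather than activates Notch (ENSMUSG00000003436, minus strand, chr7:28293553-28302238), was at 21.5, 13.2, 11.5, 14.4 and 15.5 CPM in Cdk7_KO, against 8.17, 14.2, 16.7, 19.7 and 18.9 CPM in Ctrl. The genotypes covered largely the same range, with the highest value in Cdk7_KO replicate 1 and the lowest in Ctrl replicate 1. The means were 15.2 ± 3.79 CPM in Cdk7_KO and 15.5 ± 4.64 CPM in Ctrl (SD, n = 5 each). Its log2 fold change was 0.03 (SE 0.23, edgeR adjusted p = 0.973), and its 95% interval, -0.48 to 0.53, leaves room for a moderate difference either way. Its sign turned when libraries were scaled by their totals alone (-0.03).

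**Figure D2:**
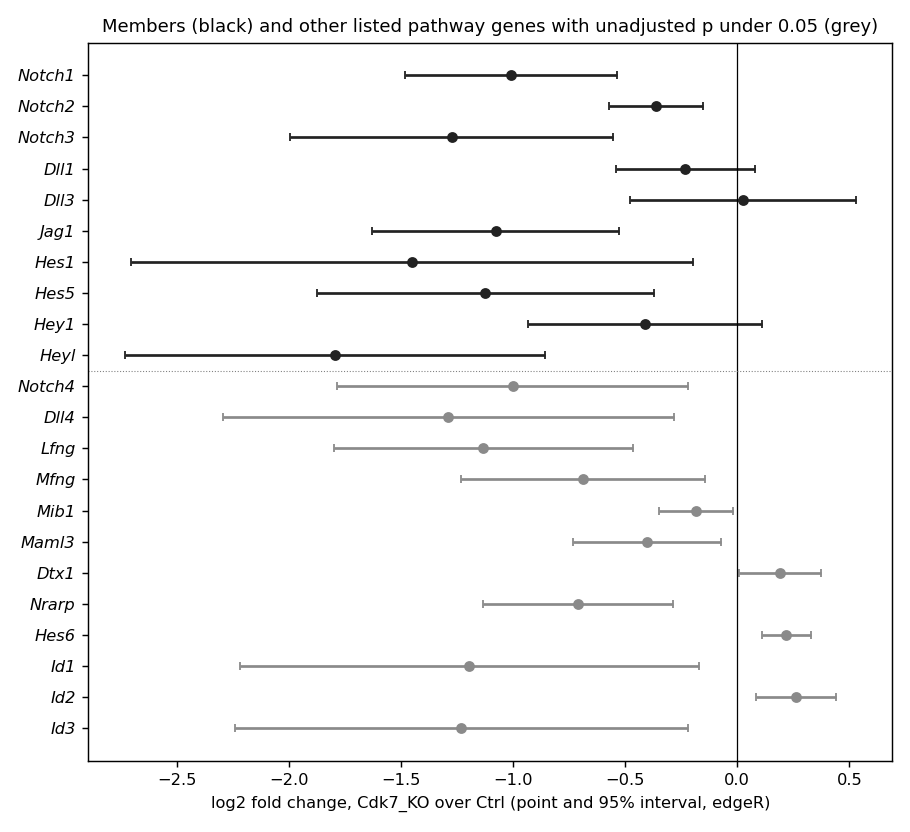
Log2 fold change of Cdk7_KO over Ctrl (horizontal axis) with its 95% interval in edgeR, for the 10 members in black and for other listed pathway genes with an unadjusted p under 0.05 in grey. Intervals of Dll1, Dll3 and Hey1 include 0, and Dll3 (0.03) is the member at the right of the line.

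Hes5, a repressor that radial glia make in answer to Notch (ENSMUSG00000048001, plus strand, chr4:154960923-154962371), was at 9.28, 5.90, 9.48, 2.44 and 4.24 CPM in Cdk7_KO, against 14.8, 11.1, 20.2, 17.1 and 7.55 CPM in Ctrl. Only Ctrl replicate 6 lay inside the range of Cdk7_KO. This gave a log2 fold change of -1.12 (SE 0.35, 95% interval -1.87 to -0.37, edgeR adjusted p = 0.183; DESeq2 adjusted 0.0198; with sex as a factor 0.0519).

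Because the targets are switched on through RBPJ, the promoters of the listed genes were searched for the RBPJ recognition sequence GTGGGAA, and for its variants with A (GTGAGAA) or with T (GTGTGAA) as the middle base, on both strands of the 300 bases around each start in RefSeq (GRCm38.p6). No match of these words can overlap another, on either strand. Of the 10 members 7 had a promoter in that set (8 promoters in all, with no entry for Hes1, Hey1 and Heyl). Among these Hes5 alone held a match, in 1 of the 8 promoters. Any of the 3 words occurred in 13.5% of all promoters. GTGGGAA occurred in 6.38% of all 32851 promoters, GTGAGAA in 4.59% and GTGTGAA in 3.24%, and 0.256% held GTGGGAA at least 2 times, as Hes5 does. Its first match starts 226 bases upstream of the start site, on the opposite strand and so read as TTCCCAC, and its second 83 bases upstream. Lfng, a glycosyltransferase gene of the pathway described below, had 1 match, 109 bases upstream, and is shown because DESeq2 called it lower. Nrarp, the other pathway gene described below that DESeq2 called lower, had 0 matches. The members Notch1, Notch2, Notch3 and Jag1, which DESeq2 also called lower, had 0 matches as well. Of the 64 further pathway genes introduced below, 50 had a promoter in the set, with 66 promoters in all. Of these 66 promoters 12 held any of the 3 words, against 13.5% of all promoters. Hey2, another Hey-family repressor, held GTGGGAA 2 times as Hes5 does, and its log2 fold change was -0.60 (SE 0.38, edgeR adjusted p = 0.488). The 250 bases before each start are shown with the matches in capitals, for Hes5 on chr4:154960673-154960922 and for Lfng on chr5:140607091-140607340, both on the plus strand. A match is a string of letters and not evidence of binding.
Hes5: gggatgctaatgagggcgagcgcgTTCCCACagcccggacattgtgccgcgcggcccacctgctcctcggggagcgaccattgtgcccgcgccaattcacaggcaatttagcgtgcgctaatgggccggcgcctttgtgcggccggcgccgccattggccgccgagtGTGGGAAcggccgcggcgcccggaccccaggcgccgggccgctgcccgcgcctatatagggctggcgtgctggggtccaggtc
Lfng: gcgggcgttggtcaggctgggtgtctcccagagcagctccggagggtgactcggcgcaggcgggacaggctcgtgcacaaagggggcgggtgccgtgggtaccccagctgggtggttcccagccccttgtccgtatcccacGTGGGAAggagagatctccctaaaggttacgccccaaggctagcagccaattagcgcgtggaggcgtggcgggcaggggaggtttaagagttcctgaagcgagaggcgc

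Hes1, the repressor that Notch switches on in most tissues (ENSMUSG00000022528, plus strand, chr16:30064384-30067796), had the largest standard error of the members. It was at 5.82, 4.18, 7.21, 0.463 and 2.39 CPM in Cdk7_KO, against 22.8, 10.7, 10.5, 9.22 and 3.26 CPM in Ctrl. The value of Cdk7_KO replicate 4 rests on 11 counts, and Ctrl replicate 6 lay within the range of Cdk7_KO. Cdk7_KO over Ctrl gave a log2 fold change of -1.45 (SE 0.58, 95% interval -2.71 to -0.20, edgeR adjusted p = 0.256). Without Ctrl replicate 1, its highest library, the log2 fold change was -1.02. Hes1 was not called by DESeq2 (adjusted p = 0.249) and was called by edgeR with sex as a factor (adjusted p = 0.0303).

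Heyl, a Hey-family repressor known from vascular smooth muscle (ENSMUSG00000032744, plus strand, chr4:123233556-123249875), was the least abundant member and had the fold change farthest from 0. It was at 3.29, 1.56, 1.70, 0.967 and 0.823 CPM in Cdk7_KO, against 10.7, 7.75, 3.83, 3.25 and 4.44 CPM in Ctrl. Cdk7_KO replicate 1 alone reached the range of Ctrl. In edgeR its log2 fold change was -1.79 (SE 0.43; 95% interval -2.73 to -0.86, edgeR adjusted p = 0.161; DESeq2 adjusted 0.00379; with sex as a factor 0.00828).

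Hey1, the Hey-family repressor of endothelium and progenitors (ENSMUSG00000040289, minus strand, chr3:8663359-8667256), was at 10.9, 11.1, 11.2, 4.92 and 9.75 CPM in Cdk7_KO, against 18.6, 13.3, 14.0, 12.1 and 8.14 CPM in Ctrl. The 3 male Cdk7_KO libraries were nearly equal, and 4 of the 5 Cdk7_KO libraries lay above Ctrl replicate 6. Cdk7_KO over Ctrl gave a log2 fold change of -0.41 (SE 0.24, 95% interval -0.94 to 0.11, edgeR adjusted p = 0.439).

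Scaled by the length of their exons, which allows a comparison between genes, the members stood in a different order in the 2 genotypes. In Cdk7_KO the Delta-like ligands Dll3 (5.34 ± 1.33 CPM per kb) and Dll1 (4.86 ± 0.717 CPM per kb) led, followed by Hes5 (4.60 ± 2.27 CPM per kb), Notch2, Notch1, Hey1, Notch3, Hes1, Jag1 and, at the end, Heyl (0.327 ± 0.192 CPM per kb). In Ctrl Hes5 came first (10.4 ± 3.64 CPM per kb), then Notch1 (6.14 ± 0.759 CPM per kb), Dll1 (5.93 ± 1.26 CPM per kb), Hes1, Dll3 (5.45 ± 1.63 CPM per kb), Notch3, Notch2, Hey1, Jag1 and Heyl (1.17 ± 0.619 CPM per kb; SD, n = 5 throughout). Each gene's range over 5 libraries overlapped that of its neighbour in either order, so that neighbours are not separated beyond their spread.

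**Figure D3:**
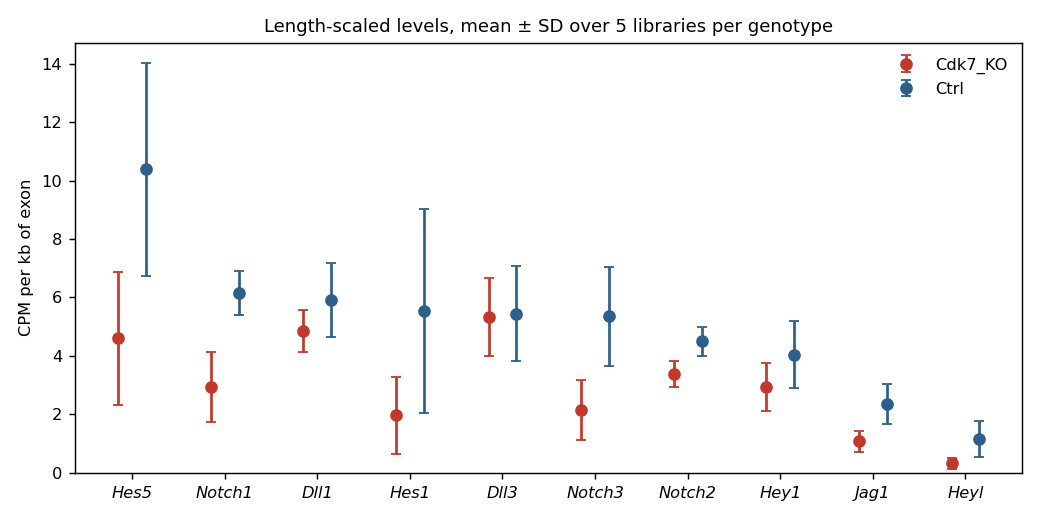
CPM per kb of exon (vertical axis, linear, from 0) for each member, as mean ± SD over 5 Cdk7_KO and 5 Ctrl libraries, ordered by the Ctrl mean. Hes5 is at 4.60 in Cdk7_KO and 10.4 in Ctrl, while Dll3 is at 5.34 in Cdk7_KO and 5.45 in Ctrl.

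By their means, Dll1 and Dll3 thus stood in a different proportion to the receptors in the 2 genotypes. The third ligand, Jag1, which was lower like the receptors, is left out of these sums. The length-scaled levels of the 3 receptors summed to 11.3, 8.63, 9.96, 5.01 and 7.50 CPM per kb in Cdk7_KO, against 18.9, 17.4, 16.7, 15.2 and 11.8 CPM per kb in Ctrl, with no overlap. Those of Dll1 and Dll3 summed to 10.2 ± 1.97 CPM per kb in Cdk7_KO and 11.4 ± 2.53 CPM per kb in Ctrl (SD, n = 5 each). The sum of Dll1 and Dll3 over that of the receptors was a ratio of 1.21, 1.08, 0.874, 1.91 and 1.30 in Cdk7_KO, against 0.410, 0.573, 0.815, 0.899 and 1.01 in Ctrl. All Cdk7_KO libraries but replicate 3 lay above all Ctrl libraries in that ratio. The 4 targets over the receptors gave a ratio of 1.11 ± 0.259 in Cdk7_KO and 1.29 ± 0.295 in Ctrl (SD, n = 5 each), with overlapping ranges. These sums over the members are a description, with no test. With Jag1 left out, the ratio of Dll1 and Dll3 to the receptors restates the values of the single genes. It is no separate result.

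The same few libraries were low for many members. Within Cdk7_KO, replicate 4 had the lowest level of 7 of the 10 members (Notch1, Notch2, Notch3, Jag1, Hes1, Hes5 and Hey1), and within Ctrl, replicate 6 had the lowest level of the same 7. Ctrl replicate 1 was highest of Ctrl for 6 members, namely Notch1, Notch3, Jag1, Hes1, Hey1 and Heyl.

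Over all 10 libraries, markers of nearly all other cell types examined had lower mean levels in Cdk7_KO. The 10 radial glia markers summed to 703 to 1754 CPM in Cdk7_KO and 1616 to 2640 CPM in Ctrl, and the 10 astrocyte markers to 88.4 to 404 CPM in Cdk7_KO and 335 to 703 CPM in Ctrl. The lowest libraries for both lists were again Cdk7_KO replicate 4 and Ctrl replicate 6. The 10 endothelial markers summed to 32.6 to 211 CPM in Cdk7_KO and 137 to 982 CPM in Ctrl, and the 10 markers of pericytes and smooth muscle to 49.4 to 150 CPM in Cdk7_KO and 163 to 572 CPM in Ctrl, the highest being Ctrl replicate 1 for both. The gap in the pericyte sum depends on Cspg4, at 27.5 CPM in Cdk7_KO replicate 3 and 70.5 CPM in Ctrl replicate 4. Without Cspg4 the ranges of that sum would overlap. Singly, 3 of the 10 radial glia markers (Vim, Nes and Prom1) and 2 of the 10 pericyte markers had no overlap with Cdk7_KO lower. This held for 0 astrocyte and 0 endothelial markers, and for 2.41% of all genes. The 2 pericyte markers had low means: Tagln was at 0.655 CPM in Cdk7_KO and 1.68 CPM in Ctrl, and Higd1b at 0.392 and 1.72 CPM. All 40 of these genes had a lower mean in Cdk7_KO and none was at 0 CPM in its group mean, although Gjb6 and Myh11 averaged under 1 CPM. At an unadjusted edgeR p under 0.05, 10.5% of all genes were lower and 4.9% higher. By that rule 10 of 10 radial glia, 8 of 9 tested astrocyte, 10 of 10 endothelial and 10 of 10 pericyte markers were lower. Their median log2 fold changes were -0.86, -1.07, -1.67 and -1.59. The same count was 6 of 10 for microglia and macrophages (median -0.85), 5 of 8 for the oligodendrocyte lineage (-0.80), 1 of 10 for interneurons (-0.84), 1 of 6 for Cajal-Retzius cells (-0.56), 3 of 4 tested for fibroblasts and meninges (-1.73) and 5 of 5 tested for erythroid cells (-1.23), with 0 higher in any of these lists. The 7 markers of intermediate progenitors, the cells that make Dll1 and Dll3 among others, summed to 115 to 140 CPM in Cdk7_KO and 115 to 152 CPM in Ctrl. Of the 6 that were tested 0 had an unadjusted p under 0.05, with a median log2 fold change of -0.09. The 10 interneuron markers summed to 268, 83.2 and 159 CPM in the male Cdk7_KO libraries, against 82.7 and 180 CPM in the male Ctrl libraries. In the female libraries they summed to 24.3 and 116 CPM in Cdk7_KO, against 356, 379 and 228 CPM in Ctrl. Sums of the oligodendrocyte lineage likewise overlapped in the male libraries, at 182 to 502 CPM in Cdk7_KO and 276 to 382 CPM in Ctrl. The part of the cell types examined here in the values of the Notch genes was not tested.

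**Figure D4:**
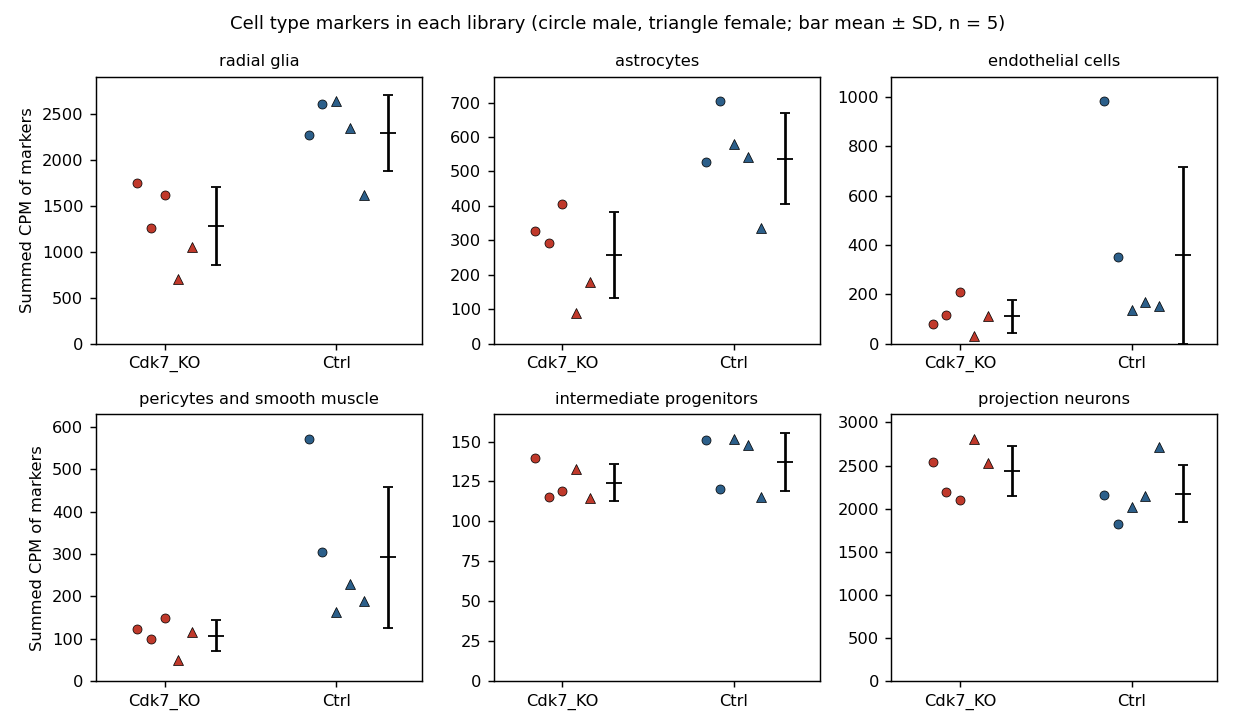
Summed CPM of marker genes of 6 cell types (vertical axes, linear, from 0) in the Cdk7_KO and Ctrl libraries, with circles for male and triangles for female libraries and bars for the mean ± SD. The summed markers of pericytes and smooth muscle do not overlap between the genotypes, which depends on Cspg4. Intermediate progenitor markers range from 115 to 140 CPM in Cdk7_KO and 115 to 152 CPM in Ctrl.

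Within each sex the receptors, Jag1 and all 4 targets were lower in Cdk7_KO. The log2 fold change of Notch1 was -1.41 in the female and -0.87 in the male libraries, that of Notch3 -1.65 in the female and -1.33 in the male libraries, that of Jag1 -1.51 in the female and -0.99 in the male libraries, and that of Heyl -2.003 in the female and -2.05 in the male libraries. Hes5 was at -2.06 in the female and -0.64 in the male libraries, and Hes1 at -2.32 in the female and -1.53 in the male libraries. Dll1 was at -0.48 in the female and 0.08 in the male libraries, and Dll3 at -0.21 in the female and 0.48 in the male libraries. In edgeR's test of the genotype by sex interaction no member passed after adjustment, as was true of 0% of all genes. At an unadjusted p under 0.05 the interaction held for Dll1 and Hes5 (adjusted p 0.665 for both), 2 of 10 members, against 7.34% of all genes. Each of these fits has 2 libraries of 1 genotype, and the difference between the sexes is also that between the 2 sets of replicate numbers.

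**Figure D5:**
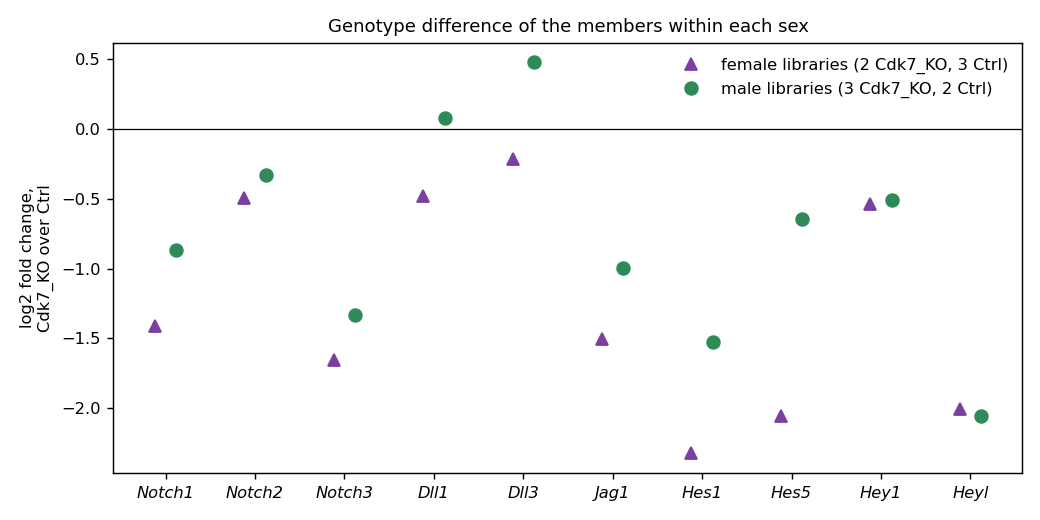
Log2 fold change of Cdk7_KO over Ctrl (vertical axis) for each member in female libraries (triangles, 2 Cdk7_KO and 3 Ctrl) and male libraries (circles, 3 Cdk7_KO and 2 Ctrl). Dll1 and Dll3 lie above 0 in the male libraries (0.08 and 0.48) and below it in the female ones.

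Of 64 further genes listed for the pathway, 60 could be tested, and most of its shared machinery differed little. At an unadjusted edgeR p under 0.05, 9 of the 60 were lower and 3 were higher in Cdk7_KO, not far from the 10.5% and 4.9% of all genes, and the median log2 fold change of the 60 was -0.07. DESeq2 called 2 lower, Lfng and Nrarp, against 3.3% of all genes, and 1 higher, Hes6, against 0.258%. With sex as a factor edgeR was read only for the 9 lower and 3 higher genes at an unadjusted p under 0.05. Among those it called Dll4, Lfng, Nrarp, Id1 and Id3 lower and Hes6 and Id2 higher. Over all genes it called 4.4% lower and 0.295% higher, a share not like for like with genes picked by the same comparison. Of the 10 genes of receptor cleavage, 0 had an unadjusted p under 0.05, and the most abundant, the protease gene Adam10, was at 128 ± 9.64 CPM in Cdk7_KO and 145 ± 12.1 CPM in Ctrl (SD, n = 5 each; log2 fold change -0.12). Furin of that list had no overlap, at 36.8 to 42.3 CPM in Cdk7_KO and 43.2 to 47.6 CPM in Ctrl (log2 fold change -0.11). No overlap with Cdk7_KO lower held for 2.41% of all genes. In the nuclear complex 5 of 9 genes had a negative log2 fold change and 1 of them an unadjusted p under 0.05, the coactivator gene Maml3 (-0.40), while the most abundant, the corepressor gene Spen, was at 0.09 and Rbpj itself at -0.07.

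Among the genes that modify receptors, Lfng and Mfng, the Fringe glycosyltransferases that alter which ligand Notch answers to, were at -1.13 (SE 0.31, edgeR adjusted p = 0.165; with sex as a factor 0.0151) and -0.69 (SE 0.25, adjusted p = 0.218; with sex as a factor 0.129). Lfng was at 10.3, 8.05, 8.71, 3.36 and 3.46 CPM in Cdk7_KO, against 14.9, 17.1, 15.7, 19.6 and 9.36 CPM in Ctrl. Cdk7_KO replicate 1 alone lay above Ctrl replicate 6. The third Fringe gene, Rfng, the most abundant of its list, was at 0.15 (SE 0.08, edgeR adjusted p = 0.398). The endothelial ligand gene Dll4 was at 6.20, 9.93, 11.6, 4.16 and 5.76 CPM in Cdk7_KO, against 43.4, 23.5, 10.0, 9.26 and 8.25 CPM in Ctrl. Its log2 fold change of -1.29 (SE 0.46, edgeR adjusted p = 0.215; with sex as a factor 0.0149) became -0.72, with an unadjusted p no longer under 0.05, without Ctrl replicate 1, the library richest in endothelial markers. Notch4, the receptor of endothelium, was at -1.002 (SE 0.36, adjusted p = 0.216), with -0.39 in the female and -1.61 in the male libraries. Dner, a Notch ligand-like protein of neurons and the most abundant of its list, was at 0.19 (SE 0.12, edgeR adjusted p = 0.500), and the second Jagged gene, Jag2, at -0.18 (SE 0.15, adjusted p = 0.610).

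Nrarp, a feedback inhibitor that Notch itself switches on, was at 31.0, 25.1, 29.1, 14.2 and 19.7 CPM in Cdk7_KO, against 48.2, 36.4, 46.5, 42.7 and 27.9 CPM in Ctrl. Its log2 fold change was -0.71 (SE 0.20, edgeR adjusted p = 0.167; DESeq2 adjusted 0.0150; with sex as a factor 0.0204). Dtx1, a Deltex ubiquitin ligase and the most abundant of the inhibitors, was at 0.19 (SE 0.08, edgeR adjusted p = 0.308). Among the ubiquitin ligases of ligands, Mib1, which ligand-bearing cells need to activate Notch, was at -0.18 (SE 0.08, edgeR adjusted p = 0.277), and Mib2, the most abundant by its mean over all libraries, at 0.06.

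Hes6 had a higher mean in Cdk7_KO, unlike Hes1 and Hes5. It encodes a Hes protein that Notch does not induce and that counteracts Hes1 in differentiating neurons. It was at 91.7, 88.2, 88.8, 85.9 and 87.0 CPM in Cdk7_KO, against 74.7, 80.1, 84.5, 78.0 and 76.2 CPM in Ctrl, with every Cdk7_KO library above every Ctrl library. That held for 1 of the 60 tested pathway genes and for 0.61% of all genes. On the log2 scale the difference was 0.22 (SE 0.05; 95% interval 0.11 to 0.33, edgeR adjusted p = 0.161; DESeq2 adjusted 0.0203; with sex as a factor 0.0417), and 0.17 when libraries were scaled by their totals alone. Of the bHLH genes that Hes proteins repress or pair with, Neurog2, which drives neuronal differentiation and Dll1 expression, was at 0.12 (SE 0.23, edgeR adjusted p = 0.846). The Id genes, whose proteins block bHLH factors, were split. Id1 (-1.20, SE 0.47) and Id3 (-1.23, SE 0.47) had unadjusted p-values under 0.05 with lower means, and Id2 (0.26, SE 0.08) with a higher mean, with edgeR adjusted p-values of 0.253, 0.237 and 0.187. With sex as a factor all 3 were called (adjusted p = 0.0367 for Id1, 0.0214 for Id3 and 0.0380 for Id2). The most abundant gene of that list, Tcf4, an E protein, was at 0.17 (SE 0.10, edgeR adjusted p = 0.469).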

How the data were processed

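The authors deposited raw counts: whole numbers per gene for each library. STAR, Salmon and the GRCm38 build are named in the submitters' processing notes. Which step each served, with which version, and whether counting used strand, is not stated in those notes. All columns were matched to samples by name. Gene positions and exon lengths came from GENCODE M21 (GRCm38).

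The test was edgeR 4.0.16 under R 4.3.3 (filterByExpr by genotype with a minimum count of 10, TMM, glmQLFit, glmQLFTest, genotype alone in the model), with Benjamini-Hochberg adjustment over 15578 genes at 0.05. All 10 members passed the filter. Printed CPM values are scaled by library totals. Each standard error is the log2 fold change over the square root of its F statistic. Alternatives were DESeq2 1.42.0, limma voom 3.58.1, other scalings and filters, robust estimation, each library left out, the replicate number as a block, sex as a factor and each sex alone. The fit was checked on simulated counts. Counting error weighs most on genes with few counts.

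The members and lists were chosen with earlier results of these data known. Named genes are Cdk7, the members, listed pathway genes with an unadjusted p under 0.05 and the most abundant gene of each pathway list. Jag2, Rbpj and Neurog2 were named for their roles, and Furin for its lack of overlap, after their values were seen. For each member with a mean of at least 5 CPM, the 3 genes with the nearest pattern were also named, by the root mean square difference of centred log2 CPM (prior count 2); some of these are not reported here.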

Additional observations from a re-analysis of the deposited data

Results flagged for a closer look

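Among the 20 sets of 5 libraries (10 members in each genotype), 2 held a library far from the other 4 by Dixon's criterion, where chance gives about 1 in 20. Dll1 in Cdk7_KO replicate 1 was at 25.8 CPM, above the other Cdk7_KO libraries at 18.1 to 19.7 CPM. Hey1 in Cdk7_KO replicate 4 was at 4.92 CPM, below the other Cdk7_KO libraries at 9.75 to 11.2 CPM.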

How the results depend on the processing

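Over all genes edgeR called 0 in the fit reported (2393 at an unadjusted p under 0.05) and limma voom 0, while DESeq2 called 578, edgeR with sex as a factor 732, without a filter 1, and with the replicate block 5. Leaving out each library gave 0 to 5, the 5 without Cdk7_KO replicate 1. The causes were not tested. Replicate numbers did not pair the samples: the deviations of same-numbered libraries correlated at -0.104 to 0.314 over the 4 shared numbers, and none correlated best with its own number. The count of members lower at an unadjusted p under 0.05 was 6 to 8 under all alternatives, and that of members higher was 0. Notch1, Notch2, Notch3, Jag1, Hes1, Hes5, Hey1 and Heyl were negative under all 21 alternatives. Dll1 turned to 0.078 in the male libraries alone. Dll3 turned to -0.029 with library totals, -0.21 in the female libraries alone, and -0.12, -0.13 and -0.0043 without Cdk7_KO replicate 1, Ctrl replicate 1 or Ctrl replicate 3, within a leave-one-out range of -0.13 to 0.12. Library totals shifted all genes by a median of -0.05. With the longest transcript as length, levels became 4.42 and 9.21 CPM per kb for Notch1 in Cdk7_KO and Ctrl, 3.96 and 5.45 for Hey1, and 5.72 for Dll1 in Cdk7_KO. With TMM scaling the log2 ratios of all 12 summed marker lists kept their sign.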

Other observations

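The genes whose levels followed the members most nearly over the 10 libraries, genotype difference included, were found among 10646 genes by the root mean square difference of centred log2 CPM. Nearest to Notch1 were Ctdsp1, a small phosphatase of the RNA polymerase II tail (0.137), the Hippo pathway factor gene Tead2 (0.153) and the glial potassium channel gene Kcnj10 (0.168), where the median gene was at 0.699. Nearest to Notch3 were the glutamine transporter gene Slc38a3 (0.149) and the protease gene Plat (0.169; median 0.946). Nearest to Hes5 were the RNA-binding protein gene Zfp36l2 (0.164) and the radial glia gene Fabp7 (0.238; median 0.877). Nearest to Notch2 were Pea15a (0.0672), Mmd2 (0.0738) and Echdc1 (0.0923; median 0.305).

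Nearest to Jag1 were the mitotic cyclin gene Ccnb2 (0.153), Rhbdf1 (0.170) and Pdlim5 (0.191; median 0.714). Nearest to Hey1 were Nfkb1 (0.139), Klf9 (0.157) and Necap2 (0.166; median 0.495). Hes1 was nearest to Ets1 (0.360), Ccn1 (0.368) and Angptl4 (0.374; median 1.41), all 3 known from vessels among other tissues. Of the Delta-like ligands, Dll1 was nearest to the microRNA host gene Mir9-3hg (0.0742), Nab2 (0.0903) and the semaphorin gene Sema5b (0.0935; median 0.297), and Dll3 to Rhobtb3 (0.161), Thap2 (0.167) and Ifit2 (0.169; median 0.415). Heyl averaged under 5 CPM and was left out.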
